A study of Mus musculus with 36 samples.

Results

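The spliceosome genes described here are 42 of the 23845 genes in the table, and they were chosen by symbol, with earlier results of these data known. They are the Snrp genes other than Snrpn, Lsm1 to Lsm8, the numbered Srsf genes, the Sf3a and Sf3b genes and the U2af genes, with pseudogene symbols left out. By role they comprise 7 Sm ring genes, 4 proteins particular to the U1 or U2 particle, 9 SF3a and SF3b subunits, 3 U2AF genes, 8 Lsm genes and 11 SR protein genes. RNA-seq libraries were made with the SMART-seq v4 kit from mouse embryos, each library from a pool of 4 to 5 embryos, in a study whose title concerns LINE-1 retrotransposons and chromatin after fertilisation. Of the 36 libraries, 17 came from 2-cell embryos (4 NI, 7 Ctrl and 6 KRAB) and 19 from 8-cell embryos (6 NI, 6 Ctrl and 7 VP64). KRAB is a known transcriptional repressor domain and VP64 a known activator domain. What NI abbreviates, and which construct the Ctrl embryos were given, are not stated in the labels, which call the pooled embryos injected and give no strain. KRAB was profiled at the 2-cell stage and VP64 at the 8-cell stage, so no stage change could be measured for either.

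Splicing removes introns from new transcripts. Small nuclear RNAs are wrapped by a ring of Sm proteins, or of Lsm proteins in the case of U6, and carry further proteins such as those of the U1 particle, which reads the 5′ splice site, and of the U2 particle, which holds the branch point through SF3a and SF3b. U2AF recognises the polypyrimidine tract and the AG at the 3′ splice site, and SR proteins bind exons and recruit both particles. Between the 2-cell and the 8-cell stage the embryo replaces the transcripts stored in the egg by transcripts of its own genome, which need to be spliced.

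RefSeq promoters on GRCm38.p6, each covering 250 bases before to 50 bases after an annotated start, were found for 35 of the 42 genes, 43 promoters in all. The letters CCGGAA, the core recognised by ETS family factors, were searched on both strands and stood in 21 of the 43 promoters (48.8%), against 14.9% of all 32851 promoters in the table. The GC box letters GGGCGG stood in 74.4% of the genes' promoters against 35.7% of all. TATAAA stood in 9.30% against 13.6%. The stretches below hold the CCGGAA copies that lie before the start and outside every annotated exon, which was the case in 6 genes. They are shown because they include genes whose transcripts went different ways between the stages. Each is written 5′ to 3′ along the gene's strand, and the capitals mark CCGGAA or its reverse complement TTCCGG. The Srsf11 stretch lies before an internal annotated start, within that gene's span of 158010473 to 158036639.
Lsm5, chr6:56704850-56704949, minus strand: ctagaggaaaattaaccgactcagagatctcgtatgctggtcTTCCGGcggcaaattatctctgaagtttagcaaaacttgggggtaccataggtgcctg
Srsf2, chr11:116853107-116853206, minus strand: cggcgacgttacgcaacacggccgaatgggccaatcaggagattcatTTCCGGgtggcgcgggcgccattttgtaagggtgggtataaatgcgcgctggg
Srsf11, chr3:158031767-158031866, minus strand: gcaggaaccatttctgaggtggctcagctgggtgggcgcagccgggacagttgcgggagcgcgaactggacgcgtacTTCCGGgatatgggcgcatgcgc
Srsf4, chr4:131873387-131873486, plus strand: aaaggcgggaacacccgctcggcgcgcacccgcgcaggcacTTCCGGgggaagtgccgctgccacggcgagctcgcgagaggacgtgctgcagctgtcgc
Srsf5, chr12:80945397-80945496, plus strand: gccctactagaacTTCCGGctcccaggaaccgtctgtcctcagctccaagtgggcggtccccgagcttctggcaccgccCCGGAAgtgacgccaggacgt
Sf3b6, chr12:4817444-4817543, plus strand: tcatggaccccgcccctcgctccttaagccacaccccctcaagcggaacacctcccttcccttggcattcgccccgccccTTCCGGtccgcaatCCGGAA

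Among these 6, Lsm5 rose from the 2-cell to the 8-cell stage in NI and in Ctrl, Srsf2 and Srsf11 passed the test as higher in Ctrl, Srsf4 fell in both, and Srsf5 and Sf3b6 passed it in neither. Of the genes with a promoter in the table, CCGGAA stood in 10 of 21 that rose in NI or Ctrl and in 8 of the other 14. A match is a description of the letters and not a binding site.

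Total counts ran from 1043740 to 10035066 per library at the 2-cell stage and from 1103574 to 13583527 at the 8-cell stage. Early markers separated the labelled stages. The summed level of 15 oocyte and 2-cell genes was 3682 to 22019 CPM in the 2-cell libraries. It was 45.2 to 454 CPM in the 8-cell libraries, where CPM are counts scaled to a common library total with TMM factors. Late markers overlapped: 12 genes of the 8-cell and later stages summed to between 173.85 (Ctrl) and 3716.6 CPM (KRAB) in 2-cell libraries. Their 8-cell sums lay between 1782.9 (VP64) and 4389.5 CPM (Ctrl). For NI, 9 of these late genes passed the test as higher in 8-cell libraries and 2 as lower, against 8 and 1 for Ctrl. Sums over 20 genes of cumulus and granulosa cells were 35.0 to 482 CPM at the 2-cell and 196 to 1531 CPM at the 8-cell stage, most of the latter from Gja1, which cleavage embryos express themselves. Of the 10 cumulus genes tested, between the stages NI had 2 rises and 5 falls and Ctrl 2 and 4, and Ereg was at 0 in every library. Hsd3b1 and Cyp11a1, which act in steroid synthesis in granulosa cells, reached 225 and 106 CPM in the VP64 group, both in replicate 6, and up to 214 and 103 CPM among the KRAB libraries. Sums over 12 sperm genes were 54.2 to 335 CPM at the 2-cell and 1.497 to 25.4 CPM at the 8-cell stage, with Smcp at 0 throughout. The part of these other cells in the stage differences was not tested. The share of counts in genes whose longest transcript is under 1000 bases, counted without the splicing genes and ribosomal protein genes, set 9 libraries apart. It was 13.0% to 15.7% in Ctrl replicate 6, KRAB replicates 3 and 5 and NI replicates 1 and 3 at the 2-cell stage, against 3.19% to 7.46% in the other 12. At the 8-cell stage it was 13.4% to 19.9% in Ctrl replicate 6, NI replicates 5 and 6 and VP64 replicate 7, against 5.65% to 11.2% in the other 15. Replicate numbers only name libraries, and nothing in the labels says that libraries of a group came from separate matings or days, so p-values measure the spread between these libraries, which may be technical.

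As a class, splicing factor transcripts stood higher at the 8-cell than at the 2-cell stage, while most genes that changed fell. In NI, edgeR's quasi-likelihood test with Benjamini-Hochberg adjustment over 13158 genes called 18 of the 41 members tested as higher and 3 as lower, 21 in all. Over all genes tested it called 49.9%, with 18.5% higher and 31.4% lower. In Ctrl, 22 members rose and 3 fell, against 22.5% and 39% of all genes and 61.5% in all. At an unadjusted p under 0.05 the members numbered 24 in NI and 27 in Ctrl, against 56% and 65.2% of all genes. The members' median log2 fold change was 0.94 in NI and 1.25 in Ctrl, where the medians of all genes tested were -0.47 and -0.51. Scaling moved all of these together: the all-gene medians were -0.72 and -0.70 with relative log expression size factors and -0.75 and -0.84 with plain library totals, and the members' medians were then 0.73 and 1.07, and 0.68 and 0.82. With relative log expression 16 members rose in NI and 20 in Ctrl, where 2134 and 2656 of 13158 genes did. With plain library totals 12 members rose in NI and 18 in Ctrl, where 1819 and 2172 genes did. A level in CPM is relative to the other transcripts of the library, so the amount of a transcript per embryo was not measured, and fewer cells with a transcript cannot be told apart from less of it per cell.

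**Figure D1:**
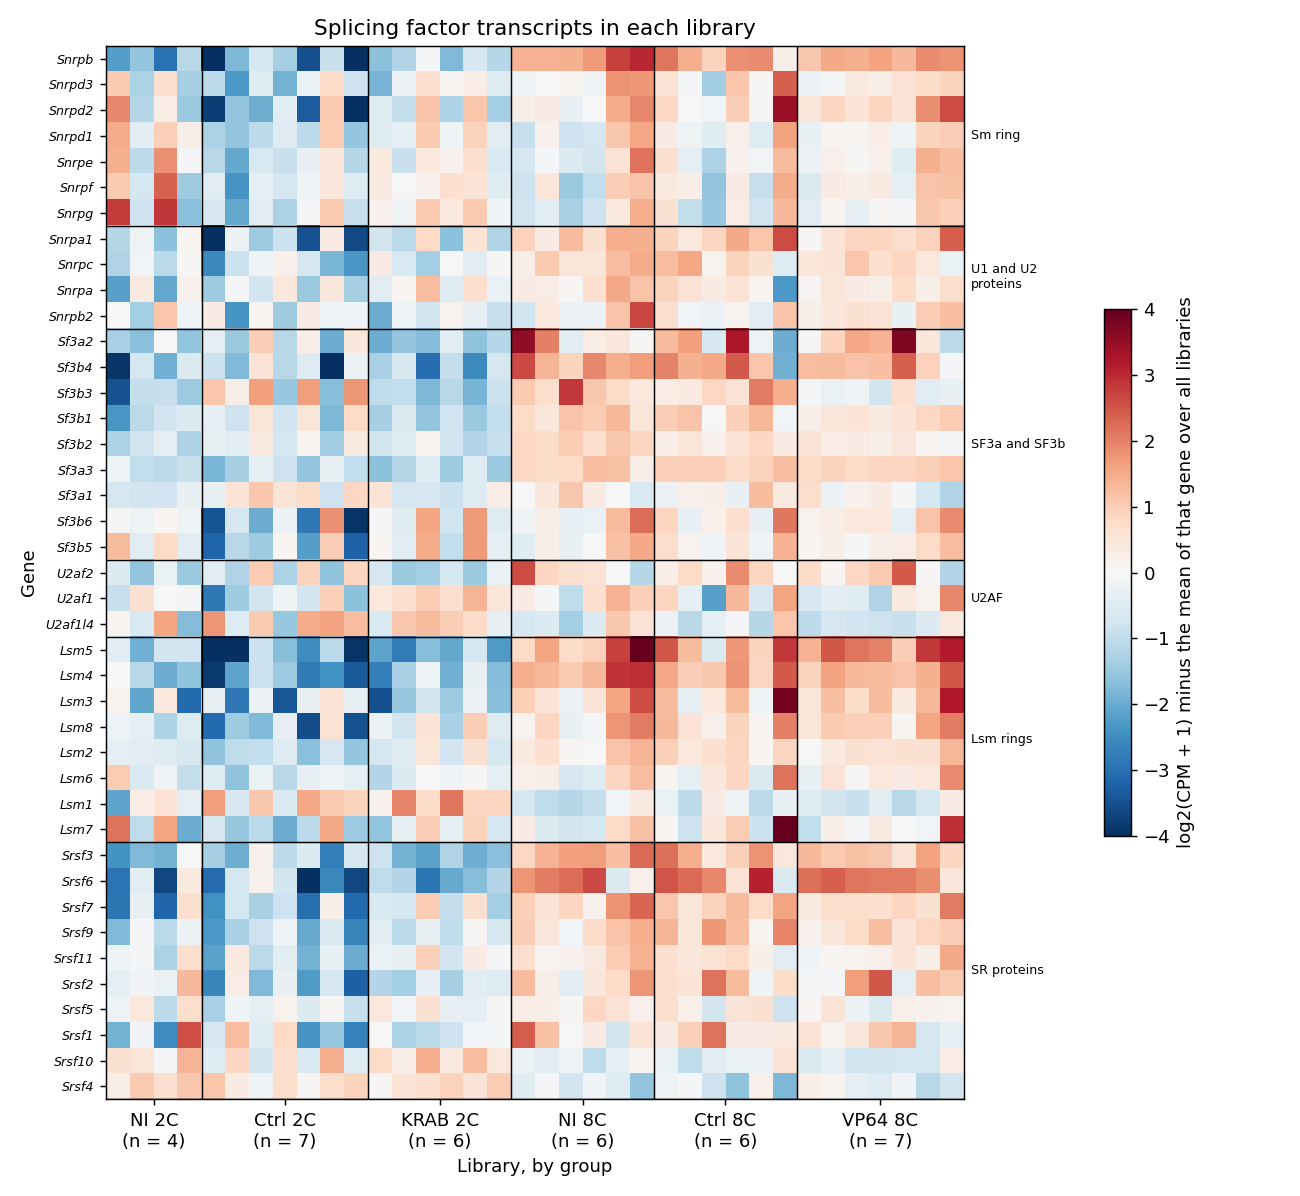
Level of 41 splicing genes (rows, grouped by role) in the 36 libraries (columns, grouped by treatment and stage), as log2(CPM + 1) minus the gene's mean over all libraries; red is higher and blue lower. Most genes are bluer in the 17 libraries of the 2-cell stage and redder in the 19 of the 8-cell stage, and Srsf4 runs the other way.

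Counts of the 42 genes together made up 0.245% to 1.11% of a 2-cell library and 0.711% to 1.52% of an 8-cell library. Srsf12, an SR protein gene, had no more than a trace in 2 libraries and was not tested. NI and Ctrl shared 14 genes that rose in both, namely Lsm2, Lsm4, Lsm5, Lsm8, Sf3a3, Sf3b1, Sf3b4, Snrpa1, Snrpb, Snrpc, Srsf3, Srsf6, Srsf7 and Srsf9. Srsf4 was lower at the 8-cell stage in both, and 10 genes passed the test in neither group. Of the 14 shared rises, 7 held in each of the 18 alternative settings or left-out libraries for NI and in each of the 21 for Ctrl: Lsm4, Lsm5, Sf3a3, Sf3b4, Snrpb, Srsf3 and Srsf6. How many of all genes rose in both groups, or held in every alternative, was not counted. In NI, 12 genes had no overlap between the stages in the higher direction (12.8% of all genes did) and 1 in the lower (20.7%). In Ctrl, 9 genes did so in the higher direction (7.13%) and 0 in the lower (17.3%). Without the 9 short-rich libraries 30 members rose in Ctrl, against 26.4% of all genes. The 8 that gained a call there were Snrpa (1.26), Snrpd1 (1.19), Snrpe (1.05), Sf3a2 (2.09), Sf3b2 (0.67), Sf3b6 (2.05), U2af1 (1.45) and Srsf5 (0.95), with adjusted p from 0.00054 to 0.030 in edgeR's test. In NI Lsm3 gained one (3.22, adjusted p 0.0026), but Lsm2, Lsm8, Snrpa1, Snrpc, Srsf7 and Srsf9 lost theirs. There 13 members rose in NI, where 2156 of 14027 genes did.

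**Figure D2:**
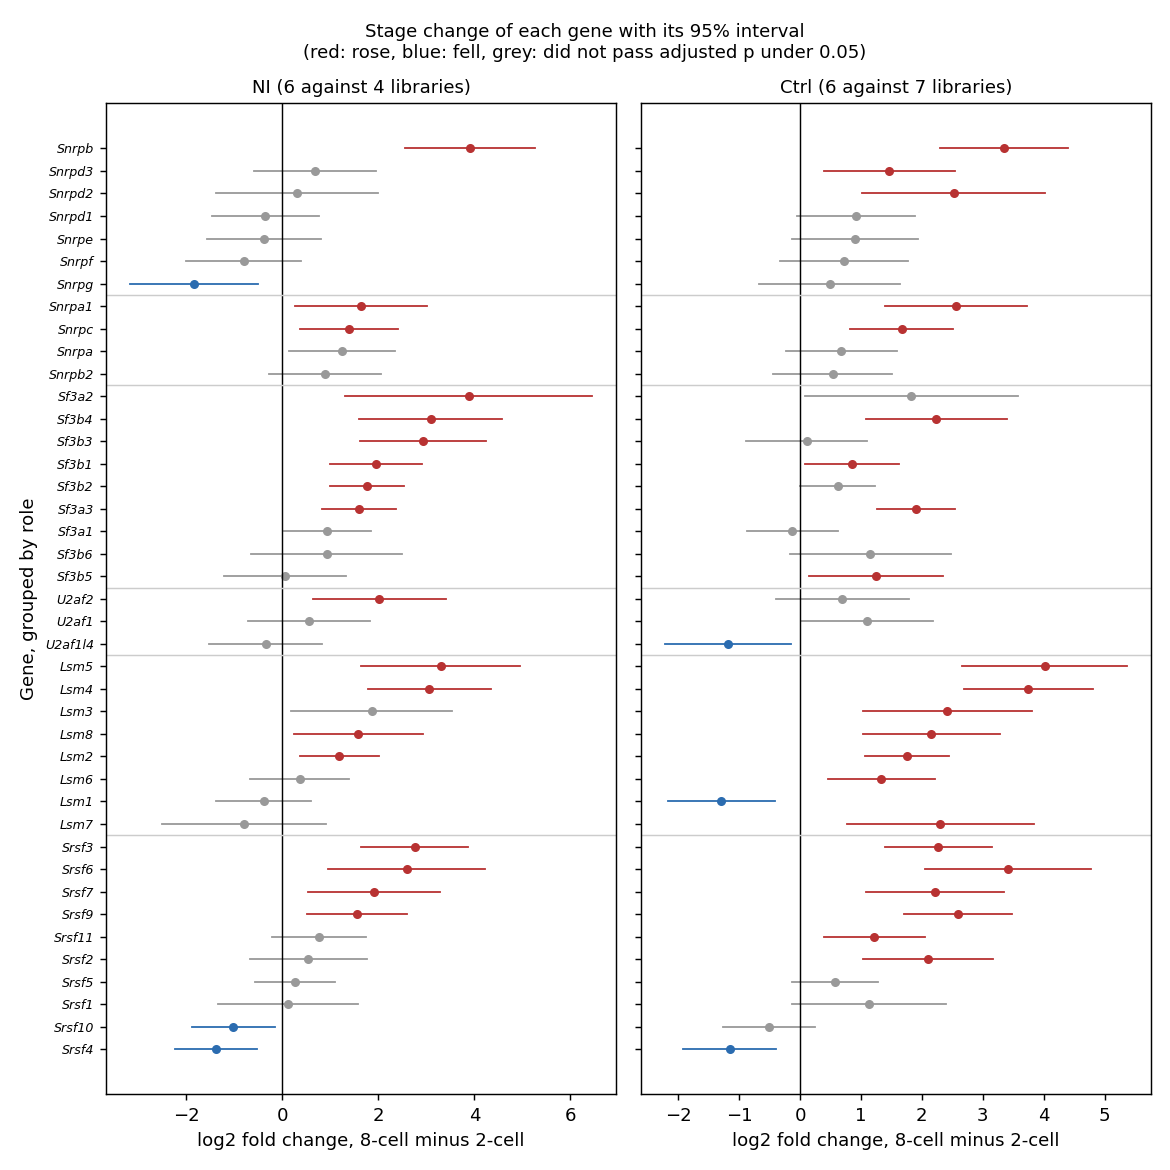
Log2 fold change of each of 41 genes from the 2-cell to the 8-cell stage with its 95% interval, in NI (left) and Ctrl (right); red points rose, blue points fell, and grey points did not pass an adjusted p of 0.05. In NI 18 points are red and 3 blue, and in Ctrl 22 are red and 3 blue.

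Of the 7 Sm ring genes, 3 had positive changes in NI, where 1 rose and 1 fell. In Ctrl all 7 had positive changes, and 3 rose. Snrpb, which encodes the SmB protein (chromosome 2, 130171414 to 130179403, minus strand, GRCm38), stood at 55.2, 87.1, 31.6 and 119 CPM in the 4 NI 2-cell libraries and at 674 to 2076 CPM, median 762, in the 6 NI 8-cell libraries. In Ctrl its lowest, median and highest values were 13.4, 73.1 and 157 CPM in the 7 libraries of the 2-cell stage and 301, 807 and 1144 CPM in the 6 of the 8-cell stage. Every 8-cell library lay above every 2-cell library in both groups, and the same held against the KRAB libraries (74.5 to 245 CPM) and for the VP64 libraries (542 to 962 CPM). Snrpb rose by 3.91 on the log2 scale (SE 0.67) in NI with an adjusted p of 1.1e-05 in edgeR's test, and by 3.34 (SE 0.52) in Ctrl with an adjusted p of 1.0e-06.

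No other Sm gene rose in NI. Snrpd2 and Snrpd3, which encode SmD2 and SmD3, passed as higher in Ctrl, by 2.52 (SE 0.74, adjusted p 0.0035 in edgeR's test) and by 1.47 (SE 0.53, adjusted p 0.017). Both calls were lost without Ctrl 8C replicate 6, which held 1491 CPM of Snrpd2 where the other 5 held 126 to 275. Without it the changes were 1.40 (adjusted p 0.078) and 0.82 (adjusted p 0.17), and the Snrpd3 call was also lost without Ctrl 2C replicate 2 (adjusted p 0.055) or 4 (0.054). Plain library totals (1.02, adjusted p 0.064) and a fit of only the groups compared (1.37, adjusted p 0.069) lost the Snrpd3 call too. Snrpd3 overlaps Gucd1 on the opposite strand, and since the kit does not mark strand, reads of such pairs cannot be told apart. Snrpd1 (SmD1) and Snrpf (SmF) passed in neither group, and 78.3% of the 31-base words of Snrpf occur in other genes of the table, chiefly the opposite-strand Ccdc38, so that its counts are uncertain.

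Snrpg, which encodes SmG, fell in NI. It stood at 3224, 258, 3356 and 144 CPM in NI 2-cell replicates 1 to 4 and at 187 to 1267 CPM, median 302, in the NI 8-cell libraries. Replicates 1 and 3 were high and the other 2-cell libraries of NI were not above the 8-cell range. The change was -1.85 (SE 0.66, adjusted p 0.019 in edgeR's test). The call was lost without NI 2C replicate 1 (-1.36, adjusted p 0.11), NI 2C replicate 3 (-1.31, adjusted p 0.12) or NI 8C replicate 3 (-1.58, adjusted p 0.055). It was also lost with only the groups compared in the fit (-1.73, adjusted p 0.081) and without the libraries under 1500000 counts (-1.16, adjusted p 0.19). Replicates 1 and 3 are also 2 of the libraries rich in short transcripts. With all 9 such libraries left out the change was 0.51, with only NI replicates 2 and 4 left at the 2-cell stage. In Ctrl, Snrpg ran from 112 to 957 CPM, median 296, at the 2-cell stage and from 161 to 1146 CPM, median 414, at the 8-cell stage, and these ranges overlapped (0.49, SE 0.58, adjusted p 0.48). Snrpe, which encodes SmE, had the highest level per length of all members, at a mean of 1074 CPM per kb of transcript over the 36 libraries. It passed in neither group (-0.38, SE 0.59, in NI and 0.90, SE 0.51, in Ctrl).

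**Figure D3:**
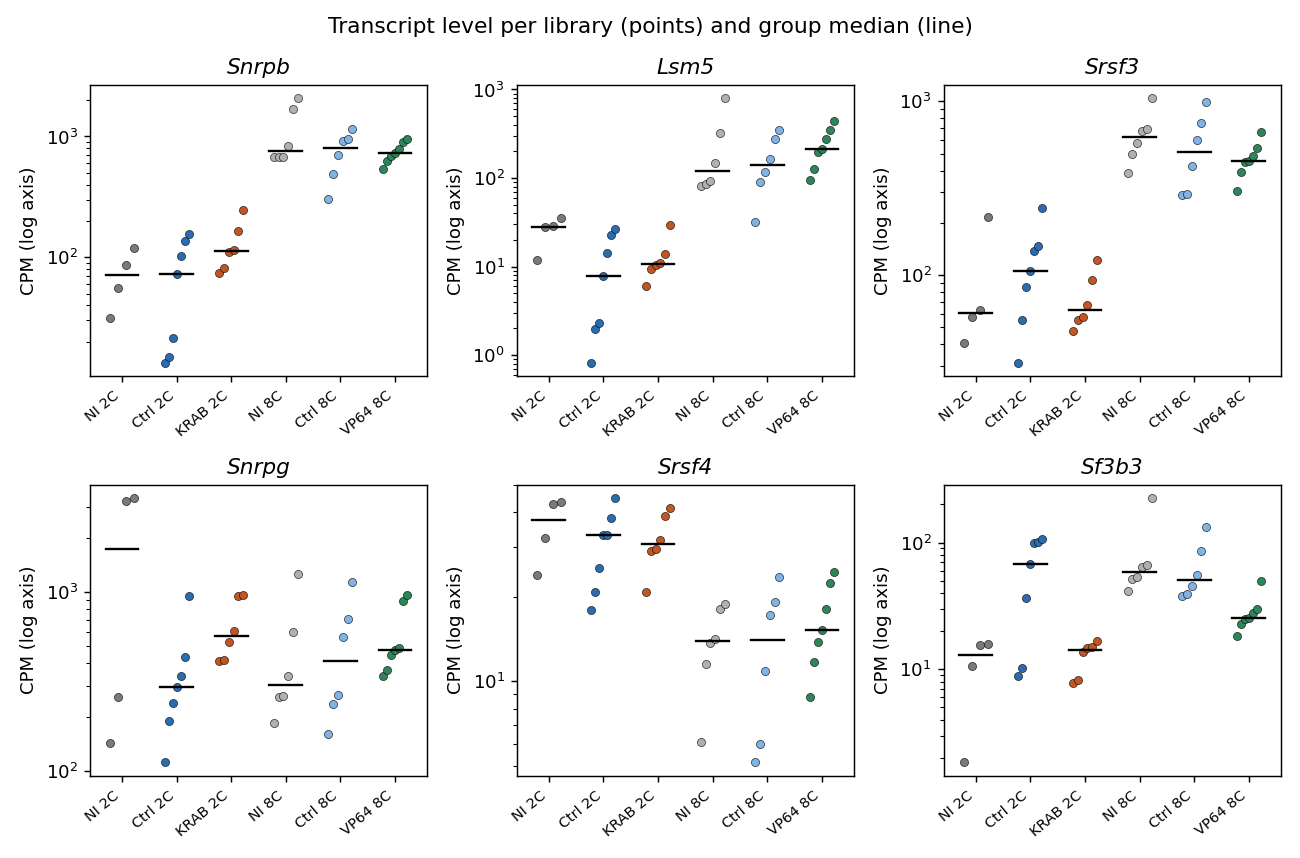
CPM of 6 genes in each library on a log axis, by group, with points for libraries and a line for the group median. Snrpb, Lsm5 and Srsf3 sit higher in all 8-cell groups, Srsf4 sits lower, Snrpg has 2 NI 2-cell libraries at 3224 and 3356 CPM, and Sf3b3 is high in 5 of the 7 Ctrl 2-cell libraries.

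Within each library, Snrpb took a larger part of the Sm ring counts at the later stage. Its share was 4.46% ± 4.48 (SD, n = 4) in NI and 6.05% ± 5.13 (SD, n = 7) in Ctrl at the 2-cell stage, and 32.1% ± 6.21 (SD, n = 6) and 27.3% ± 12.3 (SD, n = 6) at the 8-cell stage. The NI libraries did not overlap, from 0.413% to 8.82% and from 24.2% to 40.3%. In Ctrl they overlapped only through 8C replicate 6, where Snrpb was 4.21% of the Sm counts. KRAB libraries held 3.32% to 7.80% and VP64 libraries 16.5% to 25.6%. The share of Snrpg was 30.9% ± 16.9 (SD, n = 4) in NI 2-cell and 12.5% ± 1.76 (SD, n = 6) in NI 8-cell libraries, and 25.2% ± 4.78 (SD, n = 7) and 13.8% ± 3.13 (SD, n = 6) in Ctrl. These shares are descriptions chosen after the levels had been seen.

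**Figure D4:**
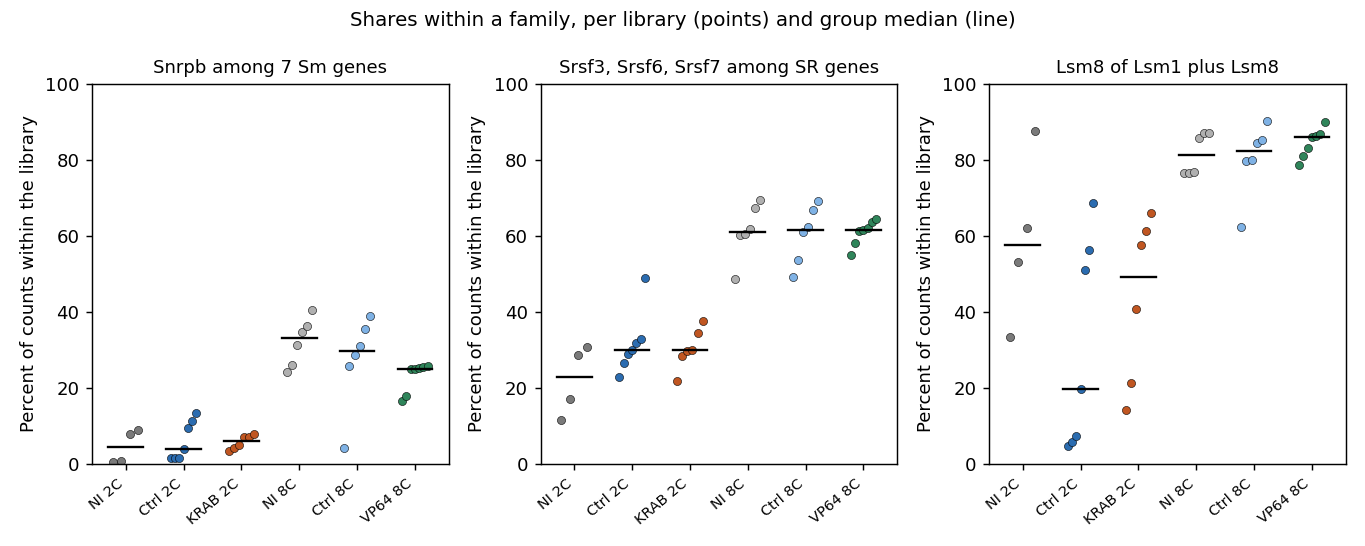
Percent of counts within a family, per library (points) with the group median (line): Snrpb among the 7 Sm genes, Srsf3, Srsf6 and Srsf7 among the SR genes, and Lsm8 among Lsm1 plus Lsm8. For Snrpb the NI libraries run from 0.413% to 8.82% at the 2-cell stage and from 24.2% to 40.3% at the 8-cell stage.

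All 4 genes for proteins of the U1 or U2 particle had positive changes in both groups, and 2 passed the test in each. Snrpa1, which encodes the U2 protein A′ and had the highest level of the 4 per length (248 CPM per kb), stood at 91.5, 175, 64.6 and 214 CPM in NI at the 2-cell stage and at 255.5 to 560 CPM, median 441, at the 8-cell stage. In Ctrl it ran from 10.3 to 258 CPM, median 73.5, and then from 273 to 1256 CPM, median 411. Neither group overlapped between the stages. The change was 2.56 (SE 0.58, adjusted p 0.00024 in edgeR's test) in Ctrl, where it held in all 21 alternatives, and 1.64 (SE 0.69, adjusted p 0.044) in NI, where it was lost in 13 of 18 with adjusted p up to 0.27. Those 13 include 4 settings and 8 single libraries, all NI libraries except 2C replicate 4 and 8C replicate 3, besides the short-rich set.

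Snrpc, which encodes the U1 protein C, rose in both groups: by 1.39 (SE 0.50, adjusted p 0.021 in edgeR's test) in NI and by 1.67 (SE 0.42, adjusted p 0.00077) in Ctrl. It held 57.7, 126, 63.1 and 138 CPM in the NI 2-cell libraries, all under the lowest of the NI 8-cell libraries at 161 CPM. The NI call was lost without 2C replicate 1 (1.20, adjusted p 0.072) or replicate 3 (1.23, adjusted p 0.071), and the change was 0.76 (adjusted p 0.30) without the 9 short-rich libraries. That call was also lost with plain library totals (1.03, adjusted p 0.14) and without the libraries under 1500000 counts (1.28, adjusted p 0.079). Snrpa (U1 protein A) and Snrpb2 (U2 protein B″) passed in neither group.

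SF3a and SF3b, the U2 subcomplexes that clamp the branch point, had positive changes for all 9 genes in NI and for 8 of 9 in Ctrl, and 6 and 4 rose. Sf3b1, which encodes the subunit that contacts the branch point, was at 82.3, 199, 244 and 281 CPM in NI 2-cell libraries and at 573 to 1053 CPM, median 776, in NI 8-cell libraries, without overlap. The rise was 1.95 (SE 0.48, adjusted p 0.00092 in edgeR's test). In Ctrl the 2-cell libraries reached 735 CPM, the ranges overlapped, and the rise of 0.86 (SE 0.38, adjusted p 0.049) was lost in 16 of 21 alternatives, with adjusted p up to 0.20, among them without any 1 of 8C replicates 1, 2 and 5 and 2C replicates 1 to 6.

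Sf3a3 had one of the narrowest spreads. It stood at 118, 67.4, 64.6 and 72.4 CPM in NI and at 36.7 to 110 CPM, median 67.7, in the Ctrl 2-cell libraries. In the 8-cell libraries it stood at 161 to 309 CPM in NI, 229 to 310 CPM in Ctrl and 227 to 290 CPM in VP64, with medians of 237, 258 and 243 CPM. All 8-cell libraries were above all 2-cell libraries, KRAB included (42.6 to 93.4 CPM). It rose by 1.60 (SE 0.38, adjusted p 0.00069 in edgeR's test) in NI and by 1.90 (SE 0.32, adjusted p 3.25e-06) in Ctrl.

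Sf3b4, the subunit that contacts the RNA upstream of the branch point, rose by 3.09 (SE 0.74, adjusted p 0.00076 in edgeR's test) in NI and by 2.24 (SE 0.57, adjusted p 0.00097) in Ctrl. Its levels were 3.07, 36.4, 15.1 and 39.7 CPM in NI 2-cell libraries and 111 to 373 CPM, median 179, in NI 8-cell libraries. In Ctrl the 8-cell libraries held 129 to 331 CPM except replicate 6 at 14.8 CPM, which lay inside the 2-cell range of 1.96 to 85.7 CPM. Sf3b4 shares 51.2% of its 31-base words with other annotated transcripts, none of them of a gene in the table.

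Sf3a2, Sf3b2 and Sf3b3 rose in NI and did not pass in Ctrl. Sf3a2 showed the largest rise of this class in NI at 3.88 (SE 1.28, adjusted p 0.011 in edgeR's test), from 0.614, 0.239, 2.87 and 0.329 CPM to between 1.98 and 45.6 CPM, median 4.12, so the stages overlapped. Without NI 8C replicate 1, the library at 45.6 CPM, its change was 2.56 with an adjusted p of 0.080, and 15.2% of its words are shared with the opposite-strand Plekhj1. Sf3b2 was at 39.9, 54.8, 73.2 and 40.3 CPM and then at 155 to 205 CPM, median 174, a rise of 1.77 (SE 0.38, adjusted p 0.00024). Sf3b5 passed as higher in Ctrl (1.25, SE 0.54, adjusted p 0.045) and lost that call in 12 of 21 alternatives, with adjusted p up to 0.25, among them without any 1 of 8C replicates 1 and 6 and 2C replicates 1, 2, 3, 5 and 7. Sf3b6, which encodes the p14 subunit and had the highest level of the class per length (203 CPM per kb), passed in neither group (0.92, SE 0.78, in NI and 1.15, SE 0.66, in Ctrl), and neither did Sf3a1.

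U2AF genes showed no shared change. U2af2, the large subunit, which binds the polypyrimidine tract, rose in NI by 2.02 (SE 0.69, adjusted p 0.014 in edgeR's test), from 15.3, 6.94, 18.6 and 7.57 CPM to between 9.76 and 145 CPM, median 35.0, with overlap. The call was lost without NI 8C replicate 1 (1.17, adjusted p 0.13), NI 2C replicate 2 (1.74, adjusted p 0.061) or NI 2C replicate 4 (1.76, adjusted p 0.058). U2af1, the small subunit, which reads the AG, had the highest level of the 3 per length (178 CPM per kb) and passed in neither group (0.55, SE 0.63, and 1.10, SE 0.54). U2af1l4, a relative of the small subunit, fell in Ctrl, from 16.2 to 164 CPM, median 114, down to 21.3 to 105 CPM, median 38.4. These ranges overlapped, and the change of -1.19 (SE 0.51, adjusted p 0.044) was lost in 10 of 21 alternatives, with adjusted p up to 0.13, among them without any 1 of 8C replicates 1 to 5 and 2C replicates 1 and 6. Its gene overlaps the opposite-strand Psenen.

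Among the Lsm genes 4 rose in NI and 7 in Ctrl, and 1 fell in Ctrl. Lsm5, a member of both Lsm rings (chromosome 6, 56701063 to 56704710, minus strand), stood at 35.6, 11.96, 28.7 and 27.7 CPM in NI 2-cell libraries and at 81.3 to 797 CPM, median 120, in NI 8-cell libraries. In Ctrl it ran from 0.821 to 26.3 CPM, median 7.83, and then from 32.3 to 348 CPM, median 141. The stages did not overlap in either group. Lsm5 rose by 3.30 (SE 0.82, adjusted p 0.0010 in edgeR's test) in NI and by 4.02 (SE 0.67, adjusted p 3.75e-06) in Ctrl. The Lsm5 stretch printed above is the upstream sequence of this gene.

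Lsm4, likewise shared by both rings, rose by 3.06 (SE 0.64, adjusted p 0.00015 in edgeR's test) in NI and by 3.75 (SE 0.52, adjusted p 1.6e-07) in Ctrl. It stood at 57.7, 25.8, 13.6 and 18.1 CPM in NI 2-cell libraries, all far under the NI 8-cell libraries at 121 to 447 CPM, median 151. Lsm2, a further shared subunit, did not overlap in either group and rose by 1.19 (SE 0.41, adjusted p 0.014) in NI and by 1.76 (SE 0.34, adjusted p 3.4e-05) in Ctrl. The NI call of Lsm2 was lost without 2C replicate 4 (1.01, adjusted p 0.055).

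Lsm1 and Lsm8 are the subunits that tell the 2 Lsm rings apart: Lsm1 belongs to the cytoplasmic ring of mRNA decay, and Lsm8 to the nuclear ring on U6. Lsm8 rose in Ctrl by 2.16 (SE 0.56, adjusted p 0.0011 in edgeR's test), from 8.64 to 165 CPM, median 31.6, up to 117 to 447 CPM, median 187. Lsm1 fell in Ctrl, with a change of -1.295 (SE 0.44, adjusted p 0.0099), from 38.9 to 196 CPM, median 128, down to 29.3 to 77.2 CPM, median 49.9. The stages overlapped for both genes, and both calls held in all 21 alternatives. In NI the rise of Lsm8 was 1.58 (SE 0.67, adjusted p 0.046), lost in 15 of 18 alternatives with adjusted p up to 0.36 (0.79 without the short-rich libraries). Leaving out any 1 NI library other than 8C replicate 3 lost it. Lsm1 did not pass (-0.39, SE 0.49).

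As a share of the counts of Lsm1 and Lsm8 together, Lsm8 made up 59.0% ± 22.5 (SD, n = 4) in NI and 30.4% ± 27.3 (SD, n = 7) in Ctrl among the 2-cell libraries. Later it made up 81.6% ± 5.51 (SD, n = 6) and 80.2% ± 9.64 (SD, n = 6). The 2-cell libraries of Ctrl spread from 4.58% to 68.5% and those of the 8-cell stage from 62.2% to 90.1%, so they overlapped at the edge. KRAB libraries ranged from 13.996% to 65.9%, and VP64 libraries from 78.6% to 90.0%.

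Lsm3, Lsm6 and Lsm7 rose in Ctrl and not in NI, and all 3 calls were lost without Ctrl 8C replicate 6. Lsm7, which had the highest level of the class per length (279 CPM per kb), stood at 3071 CPM in that library and at 98.1 to 366 CPM in the other 5. Its change in Ctrl was 2.31 (SE 0.76, adjusted p 0.0083 in edgeR's test), and 0.54 (adjusted p 0.50) without it. Lsm3 changed by 2.41 (SE 0.69, adjusted p 0.0026), and by 1.18 (adjusted p 0.099) without it. Lsm6 changed by 1.33 (SE 0.43, adjusted p 0.0079), and by 0.75 (adjusted p 0.11) without it. That library had the highest short-transcript share of all 36, 19.9%. In NI, Lsm7 was at 804, 87.8, 539 and 44.3 CPM at the 2-cell stage, high in the same 2 libraries as Snrpg, and its change of -0.80 (SE 0.84) did not pass.

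SR proteins split into a group that rose and a group that did not. Srsf3, a small SR protein that also takes part in mRNA export, stood at 40.5, 63.4, 57.4 and 217 CPM in NI 2-cell libraries and at 387 to 1044 CPM, median 623, in NI 8-cell libraries. In Ctrl it ran from 31.3 to 243 CPM, median 105, and then from 288 to 994 CPM, median 510. No 2-cell library of either group reached its 8-cell range. Srsf3 rose by 2.76 (SE 0.55, adjusted p 9.1e-05 in edgeR's test) in NI and by 2.27 (SE 0.44, adjusted p 2.85e-05) in Ctrl.

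Srsf6 rose by 2.59 (SE 0.81, adjusted p 0.0081 in edgeR's test) in NI and by 3.42 (SE 0.68, adjusted p 4.4e-05) in Ctrl, the largest rise of the class in Ctrl. Its levels were 13.5, 81.6, 7.89 and 146 CPM in NI 2-cell libraries and 73.2 to 697 CPM, median 423, in NI 8-cell libraries. The 8-cell libraries with the lowest Srsf6 were the short-rich ones: 73.2 and 127 CPM in NI replicates 5 and 6, 74.2 CPM in Ctrl replicate 6 and 152 CPM in VP64 replicate 7. Srsf7, which like Srsf3 takes part in export, rose by 1.92 (SE 0.68, adjusted p 0.018) in NI and by 2.21 (SE 0.56, adjusted p 0.00085) in Ctrl. It stood at 41.7, 254, 33.7 and 496 CPM and then at 357 to 1585 CPM, median 595, in NI, and the NI call was lost without 2C replicate 1 (1.57, adjusted p 0.069) or replicate 3 (1.56, adjusted p 0.072). Without the 9 short-rich libraries the NI change was 0.54 (adjusted p 0.45), and with plain library totals it was 1.44 (adjusted p 0.072).

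Srsf9 rose in both groups, by 1.55 (SE 0.51, adjusted p 0.012 in edgeR's test) in NI and by 2.60 (SE 0.44, adjusted p 4.1e-06) in Ctrl. The NI call was lost without 2C replicate 1 (1.296, adjusted p 0.053), with plain library totals (1.19, adjusted p 0.079) and without the 9 short-rich libraries (0.88, adjusted p 0.26). Srsf2 and Srsf11 passed as higher in Ctrl, by 2.10 (SE 0.53, adjusted p 0.00077) and 1.22 (SE 0.41, adjusted p 0.0096). The Srsf11 call was lost with plain library totals (0.82, adjusted p 0.12) and with only the groups compared in the fit (1.12, adjusted p 0.056). Srsf2 shares 23.1% of its words with other genes of the table, chiefly the opposite-strand Mettl23.

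Srsf4 fell in both groups. It was at 23.9, 42.8, 32.3 and 43.5 CPM in NI 2-cell libraries and at 6.10 to 18.9 CPM, median 13.9, in NI 8-cell libraries, without overlap. In Ctrl it ran from 17.9 to 45.0 CPM, median 33.2, and then from 5.14 to 23.5 CPM, median 14.05, with overlap. The change was -1.39 (SE 0.42, adjusted p 0.00665 in edgeR's test) in NI and -1.16 (SE 0.38, adjusted p 0.0082) in Ctrl, the latter lost without Ctrl 8C replicate 4 (-0.87, adjusted p 0.053). Its level is uncertain, since 41.0% of its words are shared with Gm12992 on the opposite strand. Srsf10, which is known to repress splicing when it is dephosphorylated, fell in NI by 1.02 on the log2 scale (SE 0.43, adjusted p 0.044), from 244, 226, 154 and 406 CPM down to 78.5 to 172 CPM, median 128. The stages overlapped, and that call was lost in 8 of 18 alternatives, with adjusted p up to 0.14, among them without any 1 of 8C replicates 3, 5 and 6 and 2C replicates 1 and 4. Srsf5, the SR gene with the highest level per length (217 CPM per kb), and Srsf1, an SR protein that promotes recognition of the 5′ splice site, passed in neither group.

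Srsf3, Srsf6 and Srsf7 had passed as higher in both groups, and Srsf5 and Srsf10 in neither. These sets were formed after the levels had been seen. The direction of their shares largely follows from those calls, so the shares are no separate result and only describe the makeup of the SR protein counts. Srsf3, Srsf6 and Srsf7 together were 21.97% ± 9.31 (SD, n = 4) of them in NI and 31.6% ± 8.34 (SD, n = 7) in Ctrl at the 2-cell stage, and 61.3% ± 7.26 (SD, n = 6) and 60.3% ± 7.66 (SD, n = 6) at the 8-cell stage. The libraries of the stages did not overlap in NI, and in Ctrl the highest 2-cell library at 48.97% lay next to the lowest 8-cell library at 49.08%. Srsf5 and Srsf10 together went from 48.99% ± 12.03 (SD, n = 4) to 19.1% ± 3.39 (SD, n = 6) in NI and from 46.2% ± 7.29 (SD, n = 7) to 18.3% ± 3.87 (SD, n = 6) in Ctrl. KRAB libraries resembled the other 2-cell libraries (21.8% to 37.5% for the first set), and VP64 libraries the other 8-cell libraries (55.03% to 64.3%).

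The stage change of Ctrl was then compared with that of NI in an interaction term, which has a median 95% half-width of 1.57 over the members. edgeR's test called 0 members and 0 of all genes (percent called 0), 5 members had an unadjusted p under 0.05, as did 20.4% of all genes, and DESeq2 called 1 member and 4.98% of all genes. The smallest p belonged to Sf3b3, the SF3b subunit bound to the SF3B1 protein: its stage change was 2.92 (SE 0.65) in NI and 0.11 (SE 0.49) in Ctrl, and the sign of the Ctrl value turned in 9 of 21 alternatives (-0.21 to 0.31). The difference was -2.82 (SE 0.79, adjusted p 0.085 in edgeR's test and 0.022 in DESeq2). The next was Lsm7, with a difference of 3.11 (SE 1.12, adjusted p 0.12). Without Ctrl 2C replicate 6, edgeR called 4 members, Lsm7 (3.96), Snrpd2 (3.22), Snrpg (2.78) and Sf3b3 (-3.001), where it called 8.36% of all genes. Without Ctrl 2C replicate 4 it called Sf3b3 alone (-3.02) and 2.02% of all genes, and without the libraries under 1500000 counts again Sf3b3 alone (-3.30) and 5.08%. The genes that passed in one group and not in the other are therefore not shown to differ between the groups.

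Levels of Sf3b3 set the Ctrl 2-cell libraries apart from the others of that stage. They were 1.84, 15.5, 15.8 and 10.54 CPM in NI and 7.83 to 16.6 CPM, median 14.2, in KRAB. In Ctrl they were 8.82 to 106 CPM, median 68.1, and 5 of the 7 Ctrl libraries lay above all NI and KRAB libraries, the exceptions being replicates 4 (10.2 CPM) and 6 (8.82 CPM). At the 8-cell stage the levels were 41.2 to 225 CPM, median 58.9, in NI, 37.9 to 134 CPM, median 50.5, in Ctrl and 18.3 to 50.03 CPM, median 25.3, in VP64.

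Within the 2-cell stage, KRAB was compared with Ctrl, whose construct the labels do not state. edgeR's test over 11799 genes called 0 of 40 members and 0 of all genes (percent called 0), and 4 members had an unadjusted p under 0.05, against 15.6% of all genes. The smallest p belonged to Sf3b3, at -2.04 (SE 0.55, adjusted p 0.22, 0 of 6 KRAB libraries above the Ctrl median), which DESeq2 called at -1.96 with an adjusted p of 0.026 as its 1 member, beside 1.45% of all genes. Next came Lsm2, at 1.10 (SE 0.39, adjusted p 0.24, 6 of 6 KRAB libraries above the Ctrl median). Without Ctrl 2C replicate 6, edgeR called Sf3b3 (-2.12) and U2af1 (2.12), both with an adjusted p of 0.0498, beside 1.34% of all genes. Changes were positive for 28 of the 40 members with a median of 0.61, where the median of all genes was -0.13, and for 7 of 7 Sm ring genes with a median of 0.92. No member's libraries were separated between the groups in either direction, against 0.119% of all genes higher and 0.144% lower.

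Ctrl against NI at the 2-cell stage gave the opposite sign for the same ring. All 7 Sm genes were lower in Ctrl, with a median of -1.70, and 10 of 40 members were positive, with a median of -0.60 against 0.07 for all genes. edgeR's test called 0 members and 0 of all genes (percent called 0), 8 members had an unadjusted p under 0.05, against 23.4% of all genes, and DESeq2 called 3 of 40, Sf3b3 (2.11), Snrpe (-1.89) and Snrpg (-2.60), which is near the 7.41% of all genes that it called. By edgeR, Snrpg differed by -2.55 (SE 0.76, adjusted p 0.12, 0 of 7 Ctrl libraries above the NI median) and Sf3b3 by 2.22 (SE 0.65, adjusted p 0.12, 5 of 7 above). Without Ctrl 2C replicate 6 it called 7 members: Lsm7, Snrpd1, Snrpd2, Snrpe, Snrpf and Snrpg as lower in Ctrl and Sf3b3 as higher. It called 11.6% of all genes in that fit. No member's libraries were separated between these groups, against 0.517% of all genes higher and 0.297% lower. Ctrl libraries serve both comparisons, so their opposite signs are not independent.

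Levels of Snrpg in NI followed the share of short transcripts. NI replicates 1 and 3, at shares of 15.7% and 15.5%, held 3224 and 3356 CPM of Snrpg, and NI replicates 2 and 4, at 5.65% and 3.89%, held 258 and 144 CPM. Without the 9 short-rich libraries the Ctrl to NI difference of Snrpg was 0.30, and the test called 0 members in either comparison. Of NI, only replicates 2 and 4 are left in that fit. Over the 40 members the log2 fold change of Ctrl against NI had a rank correlation of 0.41 with transcript length (0.10 over 11303 genes, which are not independent replicates and share the same libraries), and 17 of 19 members under 1500 bases were lower in Ctrl. Ctrl replicates 1, 5 and 7 held the lowest Ctrl levels of Snrpb (13.4, 21.3 and 14.8 CPM), Srsf6 (12.2, 5.81 and 7.93 CPM) and Lsm8 (11.96, 8.64 and 9.02 CPM), a set noticed after the values had been seen. Their shares were 3.19% to 4.30%, and replicates 2 and 3, at 3.45% and 4.29%, held 73.1 and 157 CPM of Snrpb. A link between these levels and the share was not tested.

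**Figure D5:**
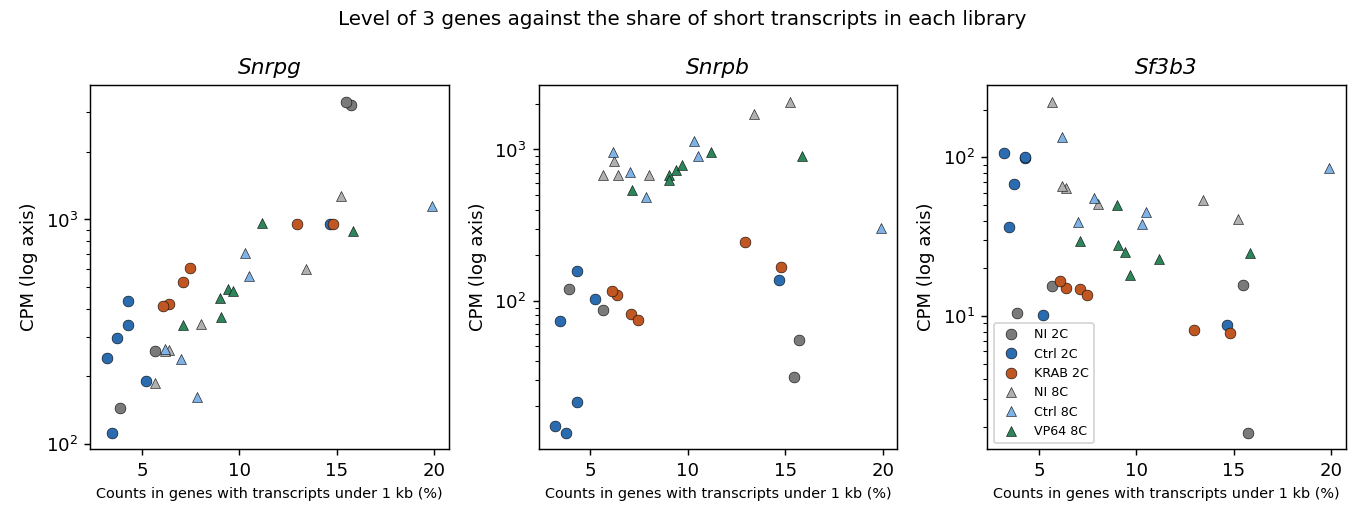
CPM of Snrpg, Snrpb and Sf3b3 (log axis) against the percent of counts in genes with transcripts under 1 kb, with circles for 2-cell and triangles for 8-cell libraries. Snrpg is highest in the 2 NI 2-cell libraries near a share of 15%, Snrpb separates the stages at any share, and Sf3b3 is high in 5 Ctrl 2-cell libraries at low shares.

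KRAB against NI at the 2-cell stage had a median change of -0.03 over the members and 19 of 40 were positive. edgeR's test called 0 of them and 0 of all genes (percent called 0), 1 had an unadjusted p under 0.05, Lsm1 at 1.36 (SE 0.58, adjusted p 0.9985, 6 of 6 KRAB libraries above the NI median), against 3.12% of all genes, and DESeq2 called 0 members and 0 of all genes. No member's libraries were separated, against 0.347% of all genes higher and 0.263% lower.

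Within the 8-cell stage, the only one with VP64 libraries, splicing genes lay close together. edgeR's test over 9850 genes called 0 of 41 members and 0 of all genes (percent called 0) in each of VP64 against Ctrl, Ctrl against NI and VP64 against NI, and DESeq2 called 0 members in each, with 0.00565%, 0.00565% and 0.175% of all genes. Unadjusted p-values under 0.05 numbered 1, 1 and 2 members, against 3.99%, 4.36% and 7.17% of all genes, and the members' medians were -0.11, -0.02 and -0.12. The median 95% half-widths of 0.90, 0.93 and 0.90 are the precision behind these counts. Sf3b3 had the smallest p of the VP64 comparisons, at -1.24 (SE 0.41, adjusted p 0.9993 in edgeR's test) against Ctrl and -1.53 (SE 0.41, adjusted p 0.44) against NI, with 0 of 7 VP64 libraries above either median. These comparisons share the VP64 libraries. Sf3b2 differed by -0.59 (SE 0.24, adjusted p 0.67) from NI, and its VP64 libraries at 92.5 to 138 CPM did not overlap the NI libraries at 155 to 205 CPM, the 1 member of 41 with such a separation, against 0.264% of all genes. The share of all genes separated upwards there was 0.193%. For VP64 against Ctrl no member was separated (0.102% of all genes higher and 0.0812% lower), nor for Ctrl against NI (0.0203% and 0.0609%). Lsm7 stood 1.74 higher in Ctrl than in NI (SE 0.80, adjusted p 0.99999), and at -0.08 without Ctrl 8C replicate 6.

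The wider splicing machinery was read from lists of 125 other genes, 124 of them tested. In NI 40 rose and 8 fell, with a median of 0.79, and in Ctrl 46 rose and 9 fell, with a median of 0.65. By list the counts of rises and falls in NI were 8 and 0 of 17 for U5 and U4/U6 proteins, 7 and 0 of 15 for the Prp19 complex and its partners, 2 and 1 of 9 for helicases, 3 and 0 of 9 for the exon junction complex, 7 and 1 of 15 for snRNP assembly, 9 and 2 of 25 for hnRNP proteins, 3 and 1 of 18 for other regulators, 1 and 1 of 7 for SR protein kinases and 0 and 2 of 9 for the minor spliceosome. In Ctrl they were 6 and 1, 3 and 0, 2 and 1, 3 and 0, 8 and 3, 16 and 3, 6 and 0, 0 and 1, and 2 and 0 in the same order. Over all genes 18.5% rose in NI and 22.5% in Ctrl.

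Several of these genes act directly on the proteins described above. Srpk2, a kinase that phosphorylates SR proteins, fell in both groups, with changes of -3.67 (SE 0.42, adjusted p 1.2e-08 in edgeR's test) in NI and -4.27 (SE 0.41, adjusted p 1.5e-10) in Ctrl, from means of 139 and 180 CPM to 10.9 and 9.31 CPM. Gemin2, the SMN partner that gathers Sm proteins for ring assembly, rose by 3.83 (SE 0.75, adjusted p 6.7e-05) and 3.53 (SE 0.58, adjusted p 3.1e-06), from 13.1 and 16.9 CPM to 190 and 192 CPM. Tgs1, which trimethylates the cap of small nuclear RNAs after assembly, fell in both, with changes of -3.47 (SE 0.44, adjusted p 5.7e-08) and -2.35 (SE 0.39, adjusted p 3.3e-06).

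Eftud2, the U5 GTPase, rose in NI by 4.72 (SE 0.90, adjusted p 4.6e-05 in edgeR's test) and did not pass in Ctrl (1.25, SE 0.61, adjusted p 0.071). Ddx39b, the helicase that helps U2 bind and links splicing to export, rose by 3.19 (SE 0.61, adjusted p 5.1e-05) in NI and 2.58 (SE 0.48, adjusted p 1.6e-05) in Ctrl. Eif4a3, the helicase core of the exon junction complex, rose by 2.33 (SE 0.50, adjusted p 0.00023) and 1.99 (SE 0.40, adjusted p 5.7e-05). Ptbp2, a repressor that binds pyrimidine-rich RNA, fell in both, with changes of -5.71 (SE 0.72, adjusted p 7.1e-08) and -4.96 (SE 0.66, adjusted p 5.6e-08), to 1.01 and 2.53 CPM.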

How the data were processed

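RNA was measured in 36 libraries in 6 groups of treatment and stage taken from the labels. Per the submitters' processing notes, the authors ran Bowtie2 and RSEM with the mm10 build, and deposited estimated counts by gene symbol. A read that fits several genes is shared out among them by RSEM, so near-identical and overlapping genes have uncertain values. Their versions and annotation: not given in the sources used here. Unused per-sample columns: 0.

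The deposited estimated counts were rounded and given to edgeR 4.0.16 under R 4.3.3, which loads limma 3.58.1, for its robust quasi-likelihood test. Scaling was TMM, the low-count filter was filterByExpr (minimum count 10, total 15), and p-values were adjusted by Benjamini-Hochberg over all genes tested, with 0.05 as the threshold. Comparisons within a stage used the libraries of that stage, and stage contrasts and the interaction all 36. Of the 42 genes, 41 passed the filter over all libraries and at the 8-cell stage, and 40 at the 2-cell stage, where Sf3a2 and Srsf12 did not. DESeq2 1.42.0 was an alternative, with other scalings, filters, sample sets and each library left out in turn. The set without the 9 libraries rich in short transcripts (a share over 12%) was added after seeing the data. The pipeline was tested on simulated data.

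The members and lists were chosen with earlier results of these data known. Named genes are, per role, the largest called rise and fall and the highest level per kb of longest transcript, and the 2 smallest p-values of each comparison within a stage that called none. Of each other list the 2 smallest p-values in NI qualified. Other genes given values were added after their values were seen, and some named by the rule are not described. Coordinates and exons come from GENCODE vM21 on GRCm38. No replicate pair agreed within sampling noise (lowest chi-square per degree of freedom 7.75 over 93 pairs). Library totals of 1043740 to 13583527 set the precision, and counts carry no molecular identifiers.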

Additional observations from a re-analysis of the deposited data

Results flagged for a closer look

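For 35 of the genes, 210 groups of 4 to 7 libraries were examined. Of these, 14 held a library whose gap to its nearest neighbour, on log2(CPM + 1), exceeded Dixon's 95% critical value for that group size. Chance flags about 1 in 20 groups.

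Replicate 7 of the VP64 8-cell group supplied 9 of the 14. It was high for Snrpa1 (1083 CPM, where the other 6 held 209 to 387), Srsf7 (1324 CPM against 411 to 577), Lsm7 (1360 CPM against 90.4 to 231), Lsm3 (647 CPM against 91.3 to 176), Lsm6 (290.0 CPM against 63.8 to 116), Srsf11 (346 CPM against 110 to 173), Srsf10 (196 CPM against 91.2 to 121) and U2af1l4 (61.4 CPM against 22.6 to 32.6). It was low for Srsf6, at 152 CPM where the others held 406 to 580. This library is 1 of the 9 rich in short transcripts.

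In the Ctrl 8-cell group replicate 6 was low for Sf3b4, at 14.8 CPM where the other 5 held 129 to 331, and high for Snrpd2, at 1491 CPM against 126 to 275. Ctrl 2-cell replicate 6 held 508 CPM of Lsm7, where the other 6 held 44.3 to 114. NI 8-cell replicate 3 held 225 CPM of Sf3b3, where the other 5 held 41.2 to 66.4, and NI 2-cell replicate 4 held 208 CPM of Srsf2, where the other 3 held 63.8 to 75.3.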

How the results depend on the processing

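Over all 41 members and alternatives, the sign of the stage change turned in 40 of 738 values in NI, from 14 members of which 1 was called (Snrpg), and in 10 of 861 in Ctrl, from 2 members not called. It turned in 10 of 18 alternatives for Srsf1 (-0.59 to 2.07) and Sf3b5 (-0.29 to 0.45) in NI. A call was gained in at least 1 alternative by 4 members in NI and 10 in Ctrl. Among the genes selected for full sensitivity values, 1284 values kept direction and side of the threshold, 110 lost a call, 23 gained one and 21 turned sign. With libraries left out one at a time, the members called between the stages numbered 14 to 21 for NI and 20 to 27 for Ctrl, and they ran from 0 to 4 for the difference of these changes, from 0 to 7 for Ctrl against NI and 0 to 2 for KRAB against Ctrl at the 2-cell stage, and stayed at 0 to 0 for the other comparisons within a stage. Apart from the fits given above, the matching shares of all genes were not counted, so these ranges do not set the members against all genes. DESeq2 called 1 member for the difference of stage changes, 1 for KRAB against Ctrl and 3 for Ctrl against NI at the 2-cell stage. Without the libraries under 1500000 counts, 1 member was called for the difference of stage changes. Without the 9 short-rich libraries the NI stage change had 13 rises and 2 falls and that of Ctrl 30 and 3.

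Of those selected genes, the 21 values that turned sign were as follows. Without the short-rich libraries the NI stage change became 1.21 for Lsm7, 0.10 for Snrpe, 0.51 for Snrpg, -0.075 for Srsf5 and -0.093 for U2af1, and at the 2-cell stage Snrpg became 0.30 in Ctrl relative to NI and 1.37 in KRAB relative to NI. Without the libraries under 1500000 counts the NI stage change became 0.10 for Lsm1 and 0.25 for Snrpe. It became -0.040 for Srsf5 with library totals. With libraries left out one at a time it ran from -1.03 to 0.091 for Snrpe, positive without NI 2C replicate 3, and the difference of Lsm7 between Ctrl and NI at the 8-cell stage ran from -0.078 to 2.05, negative without Ctrl 8C replicate 6. The Ctrl stage change of Sf3b3 became -0.096 with DESeq2, -0.095 with relative log expression, -0.16 with library totals, -0.0049 at a minimum count of 30 and -0.0031 without the short-rich libraries, and ran from -0.21 to 0.31 with libraries left out one at a time. No paired analysis was possible because the labels give no replicate numbers.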
